A study of Rattus norvegicus with 9 samples.

Results

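The genes described here are those of the rat MAP kinase cascade and of the dual specificity phosphatases, measured in peripheral blood mononuclear cells. They were chosen by name from the array's design, as every gene whose name in the files begins with Map4k, Map3k, Map2k, Mapk or Dusp, which gave 59 of 35639 gene names, on 81 probes and 117 spots. Each gene was read from its probe of highest mean signal. The cells were the lymphocytes and monocytes that a Ficoll gradient separates from the blood of male Wistar rats bled in the fed state at 6 months of age. The cafeteria group (5 rats) had eaten a fat-rich, high-energy cafeteria diet as well as standard chow for 4 months, starting when 2 months old, and the control group (4 rats) had eaten standard chow alone. No transgene, deletion or drug was involved, and 1 further control animal was left out by the submitters because it gave too little RNA. Each animal had 1 array, on which its RNA was labelled with Cy5 and a pool of the RNA of all groups with Cy3, so every value below is a log2 ratio of an animal to that common pool.

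MAP kinases are the last step of relays in which a MAP3 kinase switches on a MAP2 kinase, which in turn phosphorylates a MAP kinase. MAP4 kinases act above the MAP3 kinases. The ERK branch is known for carrying growth factor and antigen receptor signals, and the JNK and p38 branches for carrying signals of stress, cytokines and microbial products in lymphocytes and monocytes. Many dual specificity phosphatases undo the last step by removing the phosphates from MAP kinases, and several of them are transcribed in answer to the same signals that they switch off. Arrays read the transcripts of these proteins and not their phosphorylation.

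Per array, 58.8% to 66.7% of spots had Cy5 well above background, as did 50 to 54 of the 59 genes. Markers of T cells, B cells, NK cells and monocytes that could be tested were well above background on all 9 arrays. Markers of other cells were there too, and those of erythroid cells separated the groups, with list means of -0.61 to -0.02 in cafeteria animals and -1.14 to -0.70 in controls. The T cell markers were lower in cafeteria animals for 9 of 9 tested (mean difference -0.19), the platelet markers for 7 of 7 (-0.47) and the monocyte markers for 5 of 6 (-0.17). The B cell and NK cell markers were higher for 6 of 6 each (0.28 and 0.34). The list means of the T cell, platelet, monocyte, B cell and NK cell markers overlapped between the groups. For platelets the list mean was 1.43 in control 4, against -0.02, -0.34 and 0.21 in controls 1, 7 and 13. Cafeteria animals ran from -0.80 to 0.44. The part of these markers in the results below was not tested. In such mixed cells, fewer cells of a type and less RNA per cell cannot be told apart.

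The group means of the cascade's transcripts lay close together. Of the 59 genes, 53 passed the filter on dim probes, which asked for Cy5 well above background on 4 or more arrays. The other 6 were not tested. They were Mapk12 and Mapk13, which encode p38 isoforms, Mapk8ip2, a JNK scaffold, and the phosphatase genes Dusp9, Dusp10 and Dusp23. Mapk12, Mapk8ip2 and Dusp23 were well above background on no array. Over the 53 tested genes the log2 fold change of cafeteria over control ran from -0.30 to 0.35 with a median of 0.0090, against a median of 0.0070 over all 25783 probes tested. The cafeteria mean was the higher one for 27 genes and the lower one for 26.

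No gene of the cascade passed an adjusted p of 0.05 in limma with Benjamini-Hochberg adjustment over all probes (lowest adjusted p 0.660), and neither did any other probe (0% of 25783). At an unadjusted limma p under 0.05, 1 gene was higher and 2 were lower, against 1.89% and 3.81% of all probes in those directions and 5.7% in either. The groups did not overlap for 1 gene, Dusp4, which was lower. Over all probes 2.1% did not overlap, 0.857% higher and 1.24% lower. In the main fit the 95% interval of the fold change lay within 2-fold in both directions for 53 of 53 genes, and within 1.5-fold for 48 of 53. The exceptions to the narrower bound were Mapk15, Dusp1, Dusp2, Dusp13 and Dusp14. The log2 interval of Dusp1 came closest to the wider bound (-0.85 to 0.92). With slide as a block its SE was 0.57, against 0.40, which takes the interval past 2-fold. With each array centred on its median in place of loess, the split was 39 higher and 14 lower while the median of all probes stood at 0.0621. In the authors' deposited table of processed values it was 40 higher and 8 lower of 48, with all probes at 0.127, and 30 against 18 once each array was centred. No gene passed the adjusted threshold under any of these scalings.

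**Figure D1:**
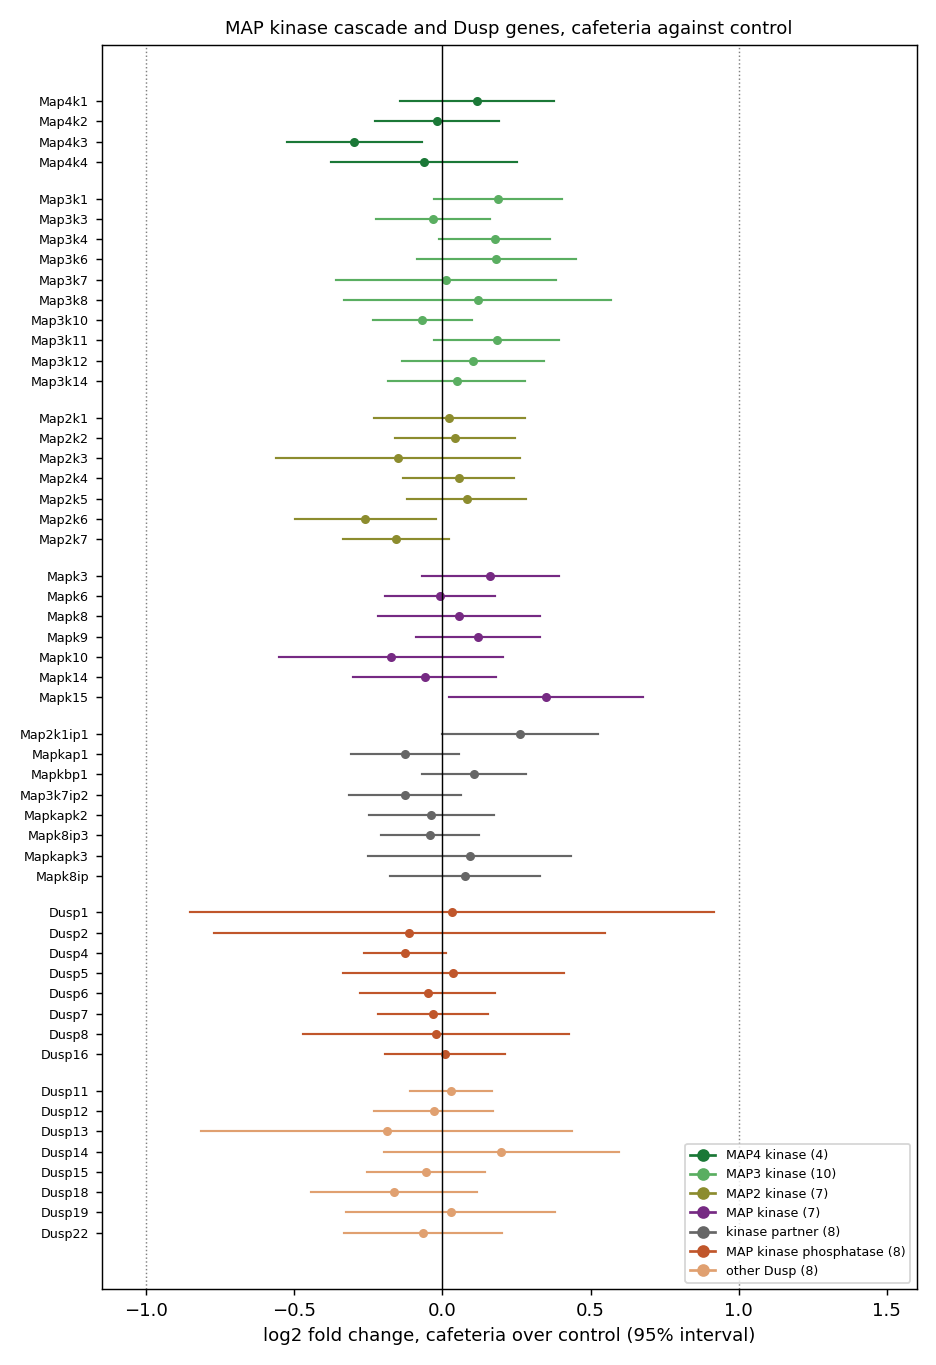
Log2 fold change of cafeteria over control (horizontal axis) for 52 of the genes tested, 1 gene per line grouped by tier, with points for the limma estimate and bars for its 95% interval. Dotted lines mark a 2-fold difference in either direction, and all 52 intervals drawn lie between them.

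At the top of the relay, 4 MAP4 kinase genes were tested, with a median log2 fold change of -0.04. That median was -0.139 without control 1, 0.0448 without control 4 and 0.106 with slide as a block. Map4k3, which encodes a kinase known for T cell receptor signalling and amino acid sensing (rn4 chr6:3536306-3540664), had log2 ratios of 0.19, 0.05, -0.12, 0.07 and 0.11 in cafeteria animals 1, 4, 7, 10 and 13, against 0.27, 0.47, 0.57 and 0.12 in control animals 1, 4, 7 and 13. The cafeteria values were the lower ones on average, and cafeteria 1 lay above control 13. The log2 fold change was -0.30 (SE 0.10, 95% interval -0.53 to -0.07, adjusted p = 0.660 in limma). A second probe of the gene (rn4 chr6:3475841-3478118) gave 0.09, so the probes of Map4k3 differed in sign.

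Map4k1, the kinase of blood-forming cells that restrains lymphocyte receptor signals, was at -0.40, -0.02, -0.03, 0.10 and -0.33 in cafeteria animals, against -0.27, -0.12, -0.44 and -0.18 in controls (0.12, SE 0.12). Map4k4, linked to JNK signalling under inflammatory cytokines, was at 0.19, -0.22, 0.02, -0.20 and -0.32 in cafeteria animals, against -0.41, 0.22, 0.08 and -0.07 in controls (-0.06, SE 0.14). For both genes the groups overlapped over most of their range.

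The MAP3 kinases named Map3k mostly had small positive differences. Of 10 genes tested 8 were higher on average and 20% were lower, against 47.4% lower over all probes. The median log2 fold change was 0.11, the range was -0.07 to 0.19, and none had an unadjusted p under 0.05 (lowest adjusted p 0.912). The listed MAP3 kinases that carry other names, Raf among them, did not share this, with 4 of 9 higher and 5 lower (median -0.04). Values within 1 slide aside, the median of the Map3k genes ran from 0.08 to 0.26 over alternative settings and arrays left out in turn. These settings reuse the same 9 arrays. The upper end came from the authors' deposited table, where the median of all probes was 0.127. Once each array of that table was centred, it was 0.14. Over the same settings the medians of the other 6 tiers crossed 0, with ranges that lay between -0.139 and 0.231. Without control 1 the count was 6 of 10. Within each of the 2 slides that held both groups, 7 of the 10 genes were higher in the cafeteria animal (medians 0.13 and 0.06). Within slide 3 the median was -0.217 for the MAP kinase phosphatases and -0.153 for the MAP2 kinases. Within slide 5 these medians were 0.107 and 0.003.

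Map3k1, a kinase that feeds the JNK branch and also carries a ubiquitin ligase domain, was at -0.15, -0.15, 0.06, 0.23 and -0.02 in cafeteria animals, against -0.33, -0.19, -0.22 and -0.02 in controls. All 5 cafeteria values lay above the 3 lowest controls, and the log2 fold change was 0.19 (SE 0.10, adjusted p = 0.944 in limma). Map3k7, which encodes TAK1, the kinase below Toll-like and interleukin 1 receptors, was at -0.17, 0.15, 0.002, 0.23 and 0.40 in cafeteria animals, against 0.06, 0.53, -0.34 and 0.18 in controls. Its fold change of 0.01 (SE 0.17) was small against the SD of 0.36 among the 4 controls. Map3k8, which encodes the kinase Tpl2 that activates ERK in macrophages after lipopolysaccharide, was at -0.45, 0.07, -0.24, 0.47 and 0.26 in cafeteria animals, against -0.52, -0.12, 0.30 and -0.04 in controls (0.12, SE 0.20). Low and high animals occurred in both groups.

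The MAP2 kinases each serve 1 or 2 branches. Map2k1 and Map2k2, which encode the ERK activators MEK1 and MEK2, differed by 0.02 (SE 0.11) and 0.04 (SE 0.09). Map2k1 was at -0.03, 0.33, -0.02, 0.39 and -0.10 in cafeteria animals, against 0.06, 0.22, -0.003 and 0.10 in controls. Cafeteria 4 and 10 were the highest of the 9 animals for it. Map2k2 ran from -0.16 to 0.04 in cafeteria animals and from -0.30 to 0.13 in controls.

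Of the activators of p38, Map2k6 was the one with an unadjusted p under 0.05. It was at 0.10, 0.09, 0.03, -0.16 and -0.04 in cafeteria animals, against 0.51, 0.29, -0.04 and 0.30 in controls (rn4 chr10:99974215-99974274). Of the 4 controls 3 lay above every cafeteria animal, and control 7 lay among them. The log2 fold change was -0.26 (SE 0.11, 95% interval -0.50 to -0.02, adjusted p = 0.816 in limma). Map2k3, the other main activator of p38, was at -0.33, -0.27, -0.58, 0.23 and 0.09 in cafeteria animals, against -0.15, 0.37, 0.06 and -0.37 in controls (-0.15, SE 0.19). Its spread within groups (SD 0.32) was larger than that of 90.5% of all probes.

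The JNK activators gave Map2k4 at -0.17, 0.07, 0.05, 0.03 and 0.01 in cafeteria animals, against 0.05, -0.05, -0.25 and 0.03 in controls (0.05, SE 0.08). Cafeteria 1 stood apart from the other 4 animals of its group. Map2k7 was at -0.06, -0.09, -0.12, -0.10 and -0.24 in cafeteria animals, against 0.01, -0.12, 0.21 and 0.04 in controls. Control 4 lay among the cafeteria values and the other 3 controls above them, with a log2 fold change of -0.16 (SE 0.08, adjusted p = 0.944 in limma). Map2k5, the activator of ERK5, differed by 0.08.

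Among the MAP kinases themselves 8 of 10 genes were tested, 4 higher and 4 lower, with a median of 0.02. Mapk3, which encodes ERK1, was at -0.29, 0.15, 0.09, 0.16 and 0.03 in cafeteria animals, against -0.15, -0.17, -0.25 and 0.03 in controls (0.16, SE 0.10). The 4 cafeteria animals other than cafeteria 1 lay above all controls, though cafeteria 13 (0.034) and control 13 (0.032) were almost equal. The gene did not pass the test (adjusted p = 0.971 in limma).

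Mapk8, which encodes JNK1, was at 0.08, 0.26, 0.14, 0.17 and 0.30 in cafeteria animals, against 0.47, -0.22, 0.08 and 0.21 in controls (0.06, SE 0.12). Mapk9, which encodes JNK2, was at 0.19, -0.01, 0.27, 0.22 and 0.33 in cafeteria animals, against 0.05, -0.07, 0.29 and 0.05 in controls (0.12, SE 0.09). The 3 tested probes of Mapk9 gave 0.09 to 0.15, while those of Mapk8 (-0.02 to 0.12) and of Mapk14 (-0.11 to 0.05) differed in sign. Mapk14, which encodes p38 alpha, was at -0.17, 0.28, -0.06, 0.12 and 0.03 in cafeteria animals, against 0.02, 0.34, -0.05 and 0.09 in controls (-0.06, SE 0.11). The groups overlapped for all 3 genes.

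Mapk15, which encodes the atypical kinase ERK7 or ERK8, had the largest positive fold change of the family (rn4 chr7:114031069-114031235). It was at -0.23, -0.17, 0.51, 0.05 and 0.28 in cafeteria animals, against -0.40, -0.29, -0.27 and -0.09 in controls. Cafeteria 7, 10 and 13 lay above all controls, while cafeteria 1 and 4 lay among them. The log2 fold change was 0.35 (SE 0.15, 95% interval 0.02 to 0.68, adjusted p = 0.839 in limma).

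**Figure D2:**
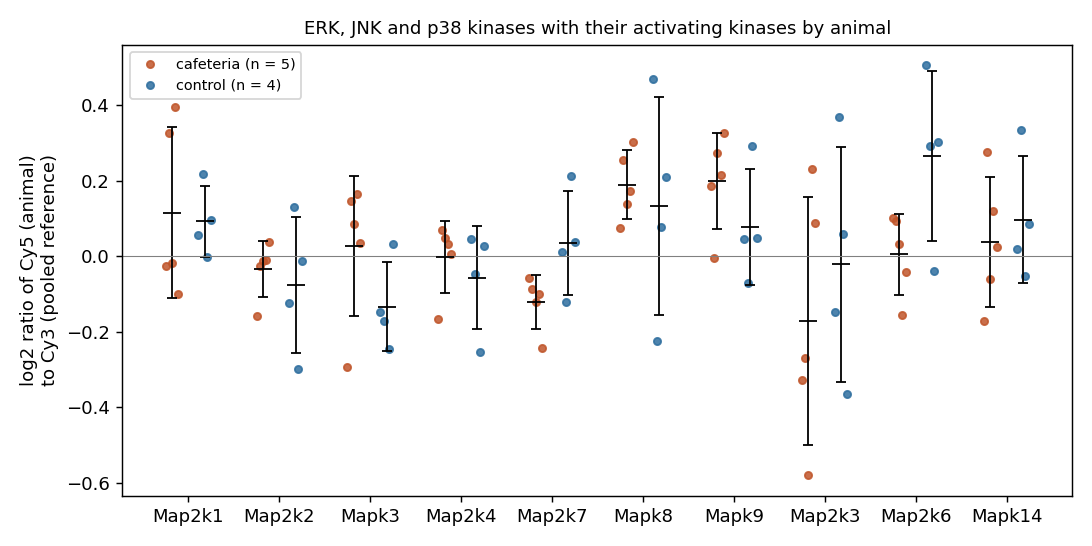
Log2 ratio of each animal to the pooled reference (vertical axis) for kinases of the ERK, JNK and p38 branches and the MAP2 kinases that activate them, with cafeteria animals left of controls for each gene. Black bars give the group mean and SD, and for every gene shown the groups overlap.

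For Mapk14, Mapk3 and Mapk8 the array carries a probe printed 10 times, which measures the error between spots of 1 array. Errors of RNA preparation, labelling and hybridization are shared by these spots. With 1 array per animal, those errors are part of the SD between animals. The SD between the repeated spots of an array had a median of 0.04 for Mapk14, 0.07 for Mapk3 and 0.08 for Mapk8. The SD between animals of the same group on those probes, taken after the spots were averaged, was 0.17 for Mapk14, 0.16 for Mapk3 and 0.10 for Mapk8. These medians lay below the SD between animals for the 3 probes, but on 1 or more arrays the spots of Mapk14 had an SD of up to 0.23, above that between animals. Of 15 genes with several tested probes, 5 had the same sign on all of them, and the largest gap between probes was the 0.39 of Map4k3.

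The proteins that bind these kinases or are activated by them gave 8 tested genes, 4 higher and 4 lower. Mapkapk2, the kinase that p38 activates to stabilise cytokine messages, was at -0.52, -0.31, -0.48, -0.38 and -0.33 in cafeteria animals, against -0.23, -0.23, -0.63 and -0.38 in controls (-0.04, SE 0.10). All 9 animals were below the pooled reference for it. Mapkapk3, its close relative, was at -0.53, 0.19, -0.37, -0.03 and -0.25 in cafeteria animals, against -0.24, -0.18, -0.62 and -0.11 in controls (0.09, SE 0.15).

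Mapk8ip3, a scaffold that links JNK to motor proteins, gave -0.04 (SE 0.08) on its brighter probe and 0.18 (adjusted p = 0.865 in limma) on another, so its direction depended on the probe. The member with the second-highest fold change, singled out after its values were seen, was Map2k1ip1, now named Lamtor3, an adaptor that holds MEK1 on late endosomes. It was at 0.43, -0.04, 0.48, 0.16 and 0.01 in cafeteria animals, against 0.01, -0.02, -0.22 and 0.003 in controls. Cafeteria 1, 7 and 10 lay above all controls and cafeteria 4 and 13 among them (0.26, SE 0.12, adjusted p = 0.875 in limma).

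Among the MAP kinase phosphatases, Dusp1 and Dusp2 varied most between animals of the same group. Their tier's median log2 fold change was -0.03, with 3 of 8 tested genes higher and 5 lower. Dusp1, the inducible nuclear phosphatase that acts on p38 and JNK above all (rn4 chr10:16944342-16944661), was at -1.59, 0.20, -0.96, 0.67 and -0.70 in cafeteria animals, against -0.17, -0.93, -0.58 and -0.36 in controls. The lowest and the highest of the 9 animals were both cafeteria animals, 1 and 10, and the 4 controls lay between them. Cafeteria animals averaged -0.48 ± 0.91 (SD, n = 5), against -0.51 ± 0.33 (SD, n = 4) for controls. The difference between these means was 0.03 (SE 0.40, 95% interval -0.85 to 0.92). Its SD within groups was 0.72, larger than that of 99.3% of all probes tested.

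Dusp2, a nuclear phosphatase of activated leukocytes (rn4 chr3:114839775-114839834), was at -1.01, -1.08, -0.10, 0.38 and -0.72 in cafeteria animals, against -0.57, -0.72, -0.41 and 0.13 in controls. The groups differed by -0.11 (SE 0.30), and the SD within groups of 0.53 was larger than that of 97.7% of probes. Cafeteria 10 was the highest animal for both Dusp1 and Dusp2, while cafeteria 4 was the lowest for Dusp2 and the second-highest for Dusp1.

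Dusp5, an inducible nuclear phosphatase of ERK, was at -0.86, -0.06, -0.28, -0.09 and 0.12 in cafeteria animals, against -0.21, -0.31, -0.21 and -0.35 in controls (0.04, SE 0.17). Dusp6, the cytoplasmic phosphatase of ERK, was at -0.22, 0.05, -0.03, 0.05 and -0.06 in cafeteria animals, against -0.08, 0.20, 0.15 and -0.24 in controls (-0.05, SE 0.10). Dusp16, which acts on JNK and p38, was at -0.15, 0.22, -0.02, -0.15 and -0.02 in cafeteria animals, against 0.08, -0.16, -0.07 and 0.01 in controls (0.01, SE 0.09). The control values lay within the cafeteria range for Dusp5, and the groups overlapped for Dusp6 and Dusp16 too. Dusp10, another phosphatase of p38 and JNK, was well above background on 1 array, a cafeteria one, and was not tested.

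Dusp4, an inducible nuclear phosphatase (rn4 chr16:61111773-61119563), was at -0.16, -0.18, -0.22, -0.12 and -0.14 in cafeteria animals, against 0.04, -0.01, -0.10 and -0.08 in controls. All 5 cafeteria animals lay below all 4 controls, by a small margin. The log2 fold change was -0.13 (SE 0.06, adjusted p = 0.937 in limma). Its SD within groups, 0.05, was small, and its signal was well above background on 6 of the 9 arrays. The fold change and its error depended on the processing of this dim probe. The log2 fold change was -0.0423 without background correction, -0.0802 (SE 0.15) with the scanner software's ratio and -0.0165 (SE 0.13) from Cy5 alone.

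**Figure D3:**
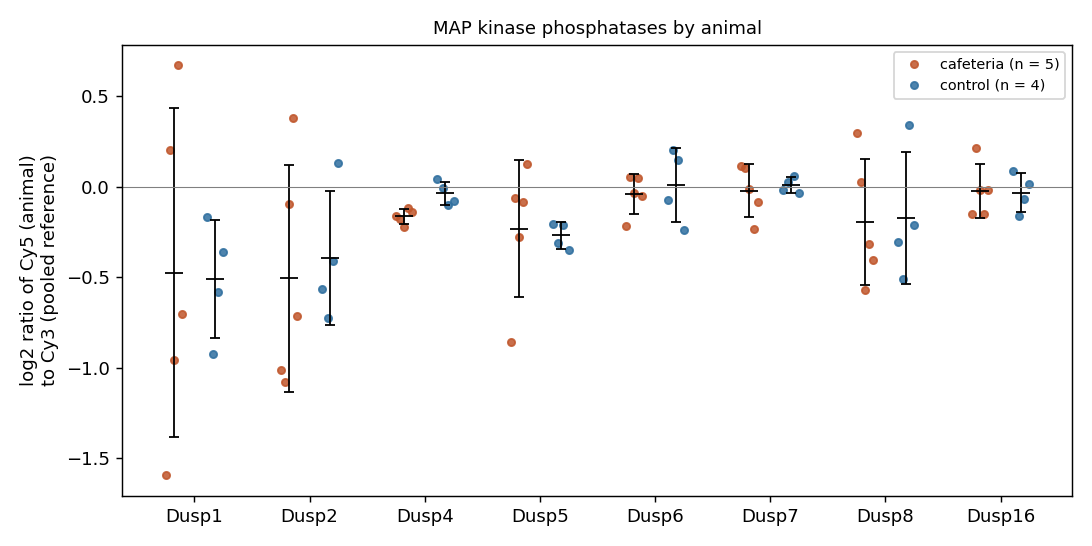
Log2 ratio of each animal to the pooled reference (vertical axis) for the 8 MAP kinase phosphatases tested, with cafeteria animals left of controls and black bars for the group mean and SD. Dusp1 spans -1.59 to 0.67 among the cafeteria animals, while the groups of Dusp4 lie close together without overlap.

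The other dual specificity phosphatases, several of which act on substrates other than MAP kinases, gave 3 of 8 tested genes higher and 5 lower, with fold changes of -0.19 to 0.20. Dusp11, a phosphatase of RNA, was almost constant, with an SD within groups of 0.05. Dusp13, known from testis and muscle, was at 0.58, 0.03, -0.89 and -0.46 in cafeteria animals 1, 4, 10 and 13, against -0.10, -0.27, 0.31 and 0.07 in controls. Its spot on the array of cafeteria 7 was marked by the scanner software and left out, so 4 cafeteria values entered the fit (-0.19, SE 0.28).

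How far animals of 1 group lay apart was spread over the members much as over all probes. The SD within groups had a median of 0.16 over the 53 genes, against 0.15 over all probes. It was above the 90th percentile of all probes, which 10% of probes exceed by definition, for 6 genes (11.3%), which were Dusp1, Dusp2, Dusp13, Map3k8, Dusp8 and Map2k3. These 6, singled out by their values, include 3 MAP kinase phosphatases and 1 kinase each of the MAP3 and MAP2 tiers.

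**Figure D4:**
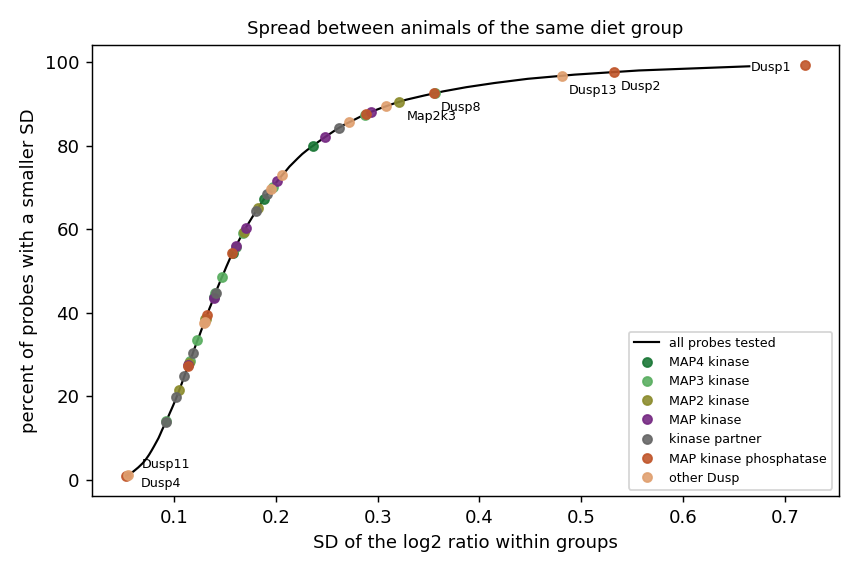
SD of the log2 ratio between animals of the same group (horizontal axis) against the percent of all probes tested that have a smaller SD (vertical axis), with the line for all probes and a point for each of 52 genes coloured by tier. Dusp1 and Dusp2 lie at 99.3% and 97.7%, and Dusp4 and Dusp11 near 1%.

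The spread of the inducible phosphatases was set beside that of Fos, an immediate early gene transcribed when MAP kinases phosphorylate their nuclear targets. Fos is no member of the family. It was at -1.31, -0.05, -0.72, 0.37 and -0.76 in cafeteria animals, against 0.38, -0.49, -0.58 and -0.03 in controls (log2 fold change -0.31, SE 0.32). Cafeteria 1 was the lowest animal in both Fos and Dusp1, and cafeteria 10 was high in both. Over the 9 animals Pearson's r between Dusp1 and Fos was 0.897 (exact two-sided permutation p = 0.00133, adjusted over 4 genes 0.00531), and Spearman's rho was 0.833 (exact permutation p = 0.00827, adjusted 0.0331).

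Once each group's mean was taken off, r between Dusp1 and Fos was 0.946. Without cafeteria 10 and control 1, the animals farthest from the median of Fos, r was 0.901 (exact permutation p = 0.0107, adjusted 0.0429, 7 animals). With each animal left out in turn it ran from 0.831, without cafeteria 1, to 0.941. Read from Cy5 alone, without the pooled reference, r was 0.917. Slides held at most 2 animals, too few for a value within a slide.

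For the other phosphatases no relation with Fos passed the test. Pearson's r was 0.467 for Dusp2, 0.502 for Dusp5 and 0.148 for Dusp6, with exact permutation p-values adjusted over the 4 genes of 0.274, 0.274 and 0.695. Spearman's rho was 0.400 for Dusp2 (exact permutation p = 0.291), 0.217 for Dusp5 (p = 0.581) and 0.0167 for Dusp6 (p = 0.982). The value for Dusp5 rested on single animals, at -0.0782 without cafeteria 1 and 0.778 without cafeteria 13 (exact permutation, adjusted p = 0.0362). That for Dusp6 was -0.251 without cafeteria 1. Whether the r of Dusp1 differs from those of the other 3 genes was not tested.

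The tested monocyte markers, 6 of the 8 listed, had list means of -0.83, 0.44, -0.70, 0.23 and -0.18 in cafeteria animals, against 0.06, 0.41, -0.52 and -0.10 in controls. Cafeteria 1 and 7, the lowest in Dusp1, were the lowest in these markers, and cafeteria 4 and 10, the highest in Dusp1, were high in them. Control 7, next lowest in the markers, was in the middle of the animals for Dusp1 (-0.58). Cafeteria 13 was lower than control 7 in Dusp1 (-0.70) and in Fos (-0.76, against -0.58), but not in the markers. Control 4 was low in Dusp1 and high in the markers. The part of monocyte content in the relation was not tested.

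**Figure D5:**
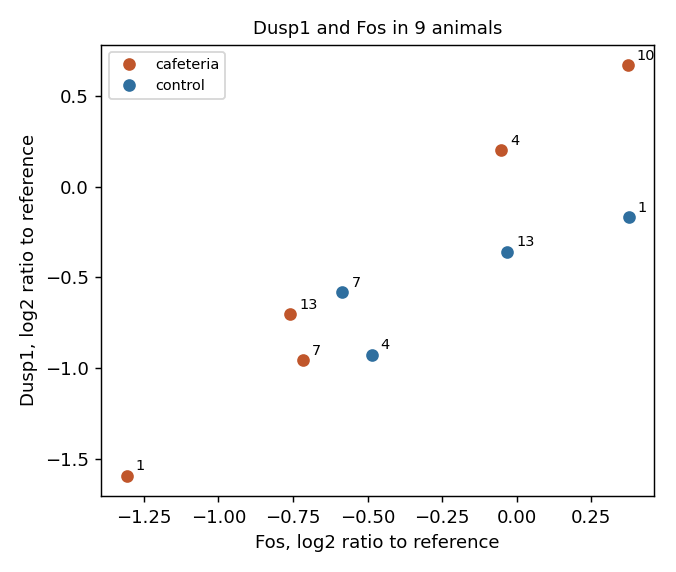
Log2 ratio of Dusp1 (vertical axis) against that of Fos (horizontal axis) to the pooled reference, with 1 point per animal labelled by its number and coloured by diet group. The points run from cafeteria 1, low in both genes, to cafeteria 10, high in both. In Dusp1 the controls lie between these animals.

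The promoters of the 4 phosphatase genes set beside Fos are shown to compare the letters bound by CREB and AP-1, factors that MAP kinase signals act on. They are the 250 bases before the annotated start, 5′ to 3′ on the gene's strand, from RefSeq on the GRCr8 build, at chr10:17184603-17184852 for Dusp1, chr3:135009386-135009635 for Dusp2, chr1:262543524-262543773 for Dusp5 and chr7:35979354-35979603 for Dusp6, all on the plus strand. Capitals mark every match, on either strand, to the cyclic AMP response element TGACGTCA, to its shorter core TGACG and to the AP-1 element TGANTCA.
Dusp1: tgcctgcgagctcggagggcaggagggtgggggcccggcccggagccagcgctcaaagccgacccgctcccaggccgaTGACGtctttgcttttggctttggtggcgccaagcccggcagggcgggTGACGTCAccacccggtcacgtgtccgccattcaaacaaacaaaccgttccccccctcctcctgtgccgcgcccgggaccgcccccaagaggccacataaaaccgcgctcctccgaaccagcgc
Dusp2: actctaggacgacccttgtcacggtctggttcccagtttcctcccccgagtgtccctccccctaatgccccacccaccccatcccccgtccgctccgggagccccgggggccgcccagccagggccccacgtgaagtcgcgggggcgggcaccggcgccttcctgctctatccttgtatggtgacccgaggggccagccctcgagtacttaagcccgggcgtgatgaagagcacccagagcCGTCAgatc
Dusp5: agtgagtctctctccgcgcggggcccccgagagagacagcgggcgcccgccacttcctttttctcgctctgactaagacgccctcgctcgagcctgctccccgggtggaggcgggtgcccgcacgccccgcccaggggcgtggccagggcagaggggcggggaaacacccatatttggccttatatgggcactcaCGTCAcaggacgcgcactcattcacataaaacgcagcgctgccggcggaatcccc
Dusp6: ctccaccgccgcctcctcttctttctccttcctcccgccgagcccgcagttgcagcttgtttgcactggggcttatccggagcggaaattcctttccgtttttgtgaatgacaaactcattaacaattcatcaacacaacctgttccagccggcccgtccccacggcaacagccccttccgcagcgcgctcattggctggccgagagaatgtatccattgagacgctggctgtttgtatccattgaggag

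The Dusp1 window held 1 full element, which 1.59% of 33469 RefSeq promoter windows of the same length hold. It held the core 3 times, 2 of them being the strands of the full element. Dusp2 and Dusp5 held the core once each, which 18.2% of the windows hold at least once, and Dusp6 held none. None of the 4 windows held the AP-1 letters, which 6.34% of windows hold. These matches describe the sequence in the window and say nothing of binding in these cells.

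Around the family, 75 of 90 listed genes of the same pathway were tested. The cafeteria mean was higher for 38 and lower for 37, and the median log2 fold change was 0.00092. No gene of the list passed the adjusted threshold in limma. At an unadjusted p under 0.05, 2 were higher and 4 lower, against 1.89% and 3.81% of all probes. The higher ones were Sos2, an exchange factor that loads Ras (0.23), and Gadd45g, a binder of a MAP3 kinase (0.32). The lower ones were Rasa1, Taok3, Elk1 and Shc1, with log2 fold changes of -0.49, -0.34, -0.24 and -0.33.

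Rasa1, the GTPase-activating protein that switches Ras off, had the smallest p of the list and was singled out by it. It was at -0.31, -0.12, -0.24, -0.26 and 0.01 in cafeteria animals, against 0.21, 0.76, 0.14 and 0.14 in controls. All cafeteria animals lay below all controls, and the log2 fold change was -0.49 (SE 0.13, adjusted p = 0.546 in limma). It was the 1 gene of the 75 tested whose groups did not overlap. Over all probes 2.1% did not overlap, 1.24% being lower. By role, the medians were 0.02 for 20 upstream genes, -0.04 for 9 Raf and other MAP3 kinases under other names, -0.03 for 10 scaffolds and adaptors, 0.02 for 4 downstream kinases, 0.0043 for 20 nuclear targets and 0.01 for 12 other brakes.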

How the data were processed

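The scanner files deposited by the authors give the intensity of each spot (mean) and of its surround (median) in Cy5 and Cy3, read, per the file headers, with Agilent Feature Extraction 9.5.1.1 without normalization. The log10 ratio of Cy5 over Cy3 in the deposited files was made by the same software after dye normalization, per the file headers, and served as an alternative. A table deposited by the authors holds processed values on a log2 scale. It follows the Cy5 level, with median values of 9.40 to 9.69 per array, and its centring and use of the reference are unknown. Flag columns of the same files, deposited by the authors, mark non-uniform spots and spots well above background. Positions are on rn4, per the file headers, which give no exon for a probe.

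Background was corrected by normexp (offset 50) and log2 ratios were normalized by loess within each array, with control spots at weight 0, in limma 3.58.1 with statmod 1.5.0 and R 4.3.3. The normexp background was estimated on spots not marked as non-uniform, a choice made after seeing the data. Estimated over all spots, a few spots with a saturated surround raised the fitted background SD to 946 and 997 in Cy5 of cafeteria 4 and control 4, against 2.31 and 1.24, and the median absolute deviation of log2 ratios on these arrays was 0.0346 and 0.0344, against 0.162 and 0.203. Spots that the software marked (non-uniform, population outlier) did not enter, repeated spots were averaged, and 25783 of 41012 probes were kept, those with Cy5 well above background on 4 or more arrays. Groups were compared per probe with limma (7 residual and 3.42 prior degrees of freedom), two-sided, with Benjamini-Hochberg adjustment over all probes. The fits were tested on simulated data. Correlations with Fos used exact permutation over 362880 pairings in Python 3.11.15 with scipy. The limma p-values set the difference of group means against the spread between animals, which includes the error of the 1 array per animal. The permutation p-values set a correlation against those of all pairings of the animals. The number of arrays limits the precision.

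The text names members with an unadjusted p under 0.05, a set of core genes by role whatever their values, and members with probes of opposite sign of which 1 had an unadjusted p under 0.05. The members, lists and tests were chosen with earlier results of these data known. By RefSeq symbol 10 further genes belong to the family but carry other names in the files (Map3k5 and Dusp3 among them) and were not analysed here. The counts and medians include 1 member that is not reported here on its own. The RefSeq symbol of 4 members differs from the file's.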

Additional observations from a re-analysis of the deposited data

Results flagged for a closer look

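Of 52 groups of values examined for 26 named genes, 2 held an animal far from the others of its group, and chance alone sets apart about 1 group in 20. Both involved cafeteria 1, the array with the lowest share of spots well above background (58.8%). Map2k4 was at -0.167 in cafeteria 1, against 0.005 to 0.070 in the other cafeteria animals. Mapk3 was at -0.293 in cafeteria 1, against 0.034 to 0.164 in the others.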

How the results depend on the processing

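No member passed the adjusted threshold in limma under any of the alternatives or with any array left out. Members with an unadjusted p under 0.05, 1 higher and 2 lower as reported, numbered 8 higher and 1 lower with median centring (6.26% and 2.35% of all probes), 9 and 1 in the authors' deposited table (10.9% and 1.86%), 1 and 3 in that table with each array centred (1.65% and 4.68%), 3 higher from Cy5 alone (2.36%), 0 and 1 with the scanner software's ratio or slide as a block, and 1 lower with normexp over all spots or the mean over probes. They numbered 2 higher without a filter or with a trended and robust prior, and 0 lower with the replicate block. The members' median was 0.104 with median centring, 0.152 in the authors' table and -0.0692 within slide 3. With 1 animal left out in turn the counts ran from 0 to 2 higher and from 1 to 3 lower, and the median from -0.00957 to 0.0254. Of 645 recomputed log2 fold changes of the named members, 555 kept their sign and their side of the threshold and 90 changed sign, from values that had not passed the test. These sign changes were as follows (log2 fold change). With slide as a block: Dusp1 -0.20, Dusp16 -0.20, Dusp5 -0.20, Dusp6 0.073, Map2k2 -0.015, Map2k3 0.21, Map2k4 -0.10, Map3k7 -0.091, Map4k4 0.23, Mapk3 -0.0064, Mapk8 -0.22 and Mapkapk3 -0.10. With the replicate block, in which cafeteria 10 has a level of its own and adds nothing, as in the values without cafeteria 10: Dusp1 -0.25, Map2k1 -0.046 and Map3k7 -0.013. Within slide 3 (cafeteria 1 and control 1): Dusp1 -1.43, Dusp16 -0.23, Dusp5 -0.65, Map2k1 -0.084, Map2k2 -0.033, Map2k4 -0.21, Map3k7 -0.23, Map4k1 -0.13, Map4k4 0.60, Mapk3 -0.14, Mapk8 -0.40, Mapk8ip3 0.025 and Mapkapk3 -0.29. With normexp estimated over all spots: Dusp16 -0.068, Dusp6 0.00094 and Mapk8 -0.012. Within slide 5 (cafeteria 10 and control 13): Dusp16 -0.16, Dusp2 0.25, Dusp6 0.29, Map2k3 0.60, Mapk14 0.033 and Mapk8 -0.037. With median centring: Dusp2 0.0084, Dusp6 0.073, Map4k4 0.062, Mapk14 0.054, Mapk8ip3 0.036 and Mapkapk2 0.085. In the authors' deposited table of processed values: Dusp2 0.073, Dusp6 0.13, Map2k3 0.0028, Map4k4 0.11, Mapk14 0.10, Mapk8ip3 0.065 and Mapkapk2 0.14. From Cy5 alone: Dusp6 0.11, Map3k7 -0.044, Mapk8ip3 0.0062 and Mapkapk2 0.0077. In the authors' table after centring each array: Dusp6 0.0063 and Mapkapk2 0.013. With array weights: Dusp6 0.032 and Map3k7 -0.013. As the mean over the probes of a gene: Map3k7 -0.0797, Map4k4 0.028 and Mapk8ip3 0.0695. With 1 animal left out, the values that crossed 0 ran over these ranges: Dusp1 -0.25 to 0.31, Dusp16 -0.051 to 0.048, Dusp2 -0.33 to 0.061, Dusp5 -0.052 to 0.19, Dusp6 -0.13 to 0.016, Map2k1 -0.046 to 0.077, Map2k2 -0.032 to 0.11, Map2k4 -0.011 to 0.10, Map3k7 -0.14 to 0.15, Map3k8 -0.023 to 0.25, Map4k4 -0.18 to 0.027, Mapk14 -0.12 to 0.0198, Mapk8 -0.064 to 0.17, Mapkapk2 -0.12 to 0.0077 and Mapkapk3 -0.019 to 0.18. The correlation with Fos ran from -0.0782 to 0.778 for Dusp5 and from -0.251 to 0.33 for Dusp6, a check added after seeing the data. The cause of these shifts was not tested.

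Animals with the same number in both groups (1, 4, 7 and 13) correlated at -0.0586, 0.0347, 0.128 and -0.177 in deviations from group means. None correlated best with its own number. The labels do not say what the number stands for, and these few correlations cannot show whether such animals were paired. The replicate block changed no adjusted call. Of 7 slides 2 held both groups, with 1 animal of each, and the others held 1 array. Signal over background limits Dusp4, which was well above background on 6 of 9 arrays. With 9 animals the 95% intervals of Mapk15, Dusp1, Dusp2, Dusp13 and Dusp14 reached beyond 1.5-fold.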
